A study of Mus musculus with 10 samples.

Results

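The genes of the unfolded protein response, the program by which a cell answers misfolded protein in the endoplasmic reticulum (ER), were examined in the hypothalamus of mice with a subcutaneous C26 colon adenocarcinoma, which makes its host lose weight and serves in the study of cancer cachexia. A list of 32 genes was taken, and a gene was read from its brightest probe set among those that the platform annotation pairs with that gene alone. Of the 32, 30 had such a probe set, among 18820 genes in all, and 29 passed the filter on dim signals and were tested with 12978 genes. Ddit3, which encodes the stress transcription factor CHOP, shares its probe set with Mars1, and Pdia4, a disulfide isomerase gene, shares its own with Mir704, so neither is reported. The remaining gene, Trib3, lay below the filter level on every array.

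The tumour-bearing group was 5 male CDF1 mice (a cross of the BALB/c and DBA/2 strains), aged 10 to 11 weeks, that had received 1000000 C26 cells under the skin of the right flank in 0.2 ml of Hanks' salt solution. The control group was 3 mice of the same strain, sex and age that received the solution without cells. All were killed on day 20, and hypothalamic RNA of each mouse was hybridised to its own whole-transcript array. A further array held RNA pooled from 5 tumour-bearing mice and another held RNA pooled from 4 controls. Whether the pools hold RNA of the individually arrayed animals is not stated, so they entered no main test. All tumours came from 1 transplanted cell line, and the sham injection carried no cells, so an effect of the tumour cannot be told apart from an effect of injecting cells. Values are log2 levels made by RMA, which fits each array to a common distribution, and all differences are tumour-bearing minus control on that log2 scale. The 8 individual arrays correlated with one another at 0.987 to 0.992.

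Proteins that are secreted or sit in membranes fold in the ER with the help of chaperones, disulfide isomerases and sugar-binding lectins. When unfolded protein builds up, the sensors IRE1, PERK and ATF6 are released from the chaperone BiP. IRE1 splices the Xbp1 transcript into the form that encodes an active transcription factor, PERK slows translation and favours that of ATF4, and ATF6 is cut to release its own transcription factor. Together they raise the genes of ER chaperones and of ER-associated degradation. Hypothalamic peptide neurons have a heavy secretory load, and ER stress in the hypothalamus has been tied to leptin resistance in obese rodents. The arrays measure transcript level only, so splicing of Xbp1, phosphorylation of PERK and cleavage of ATF6 were not measured.

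Some of these genes share a promoter element. The genes were not chosen by sequence, but the elements searched are textbook elements of this response. Matches among its genes could thus be foreseen, and the shares below are description, not a test. The ER stress response element (ERSE), made of CCAAT, 9 bases of any kind (NNNNNNNNN) and CCACG, is the site through which ATF6 and XBP1 act with the factor NF-Y. It was searched on both strands in RefSeq promoter windows (GRCm38.p6) of 300 bases, running from 250 bases before the annotated start to 50 after it. Of the 32 genes 28 were matched to a window by symbol, all but Atf6, Hyou1, Manf and Derl1. An exact ERSE stood in the windows of 9 of the 28 (32.1%), against 37 of 27025 genes with a window in all (0.137%), or 0.119% of windows. Each match follows, turned so that CCAAT comes first, with CCAAT and CCACG in capitals and the 9 spacer bases between them in lower case.
Hspa5, chr2:34772013-34772055, plus strand: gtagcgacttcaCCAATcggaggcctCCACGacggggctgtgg
Hsp90b1 (distal), chr10:86705626-86705668, minus strand: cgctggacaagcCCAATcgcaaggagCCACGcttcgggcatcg
Hsp90b1 (proximal), chr10:86705521-86705563, plus strand: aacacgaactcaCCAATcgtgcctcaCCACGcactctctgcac
Calr, chr8:84847063-84847105, plus strand: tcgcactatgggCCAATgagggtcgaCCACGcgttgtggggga
Canx, chr11:50325788-50325830, minus strand: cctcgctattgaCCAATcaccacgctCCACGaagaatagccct
Creld2, chr15:88819508-88819550, minus strand: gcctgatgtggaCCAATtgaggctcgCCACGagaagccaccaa
Dnajc3, chr14:118937815-118937857, plus strand: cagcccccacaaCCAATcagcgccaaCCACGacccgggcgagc
Pdia6, chr12:17266479-17266521, plus strand: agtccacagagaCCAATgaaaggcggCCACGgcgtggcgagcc
Syvn1, chr19:6046520-6046562, plus strand: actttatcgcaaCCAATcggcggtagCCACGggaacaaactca
Derl3, chr10:75893230-75893272, minus strand: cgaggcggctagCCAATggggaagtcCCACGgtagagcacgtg

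These 9 genes encode chaperones and lectins (Hspa5, Hsp90b1, Calr, Canx, Creld2), a co-chaperone (Dnajc3), a disulfide isomerase (Pdia6) and parts of the degradation machinery (Syvn1, Derl3). Hsp90b1 held 2 matches, and the first bases of all 10 lay between positions -212 and -44 from the start. The related ERSE-II, made of ATTGG, any base (N) and CCACG, was in the windows of Herpud1 and Dnajb11 (2 of 28, 7.14%, against 0.0444% of all genes with a window, or 0.0365% of windows). It shares CCACG with ERSE and holds CCAAT on the other strand, but neither of these genes had an ERSE match, and the match in Dnajb11 began at position 7, after the start. The site in Herpud1, whose product recruits the degradation machinery, stood at position -52 and is shown with its fixed bases in capitals.
Herpud1, chr8:94386365-94386399, plus strand: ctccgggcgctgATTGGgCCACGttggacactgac

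The amino acid response element bound by ATF4 was searched as TGATGNAA, a short form common by chance. It was in the windows of 4 of the 28 genes (14.3%), Asns, Chac1, Trib3 and Herpud1, against 4.51% of all genes with a window (3.97% of windows). The match in Trib3, which ATF4 also induces, began at position 14, after the start. Asns and Chac1, both known ATF4 targets, are shown with the fixed bases in capitals.
Asns, chr6:7693213-7693244, minus strand: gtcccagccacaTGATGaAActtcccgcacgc
Chac1, chr2:119351037-119351068, minus strand: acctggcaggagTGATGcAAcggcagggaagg

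The XBP1 site TGACGTGG, which overlaps CCACG on the other strand, was in the windows of 0 of the 28 genes and of 0.714% of all genes with a window (0.676% of windows). A match describes these letters in these windows only.

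**Figure D1:**
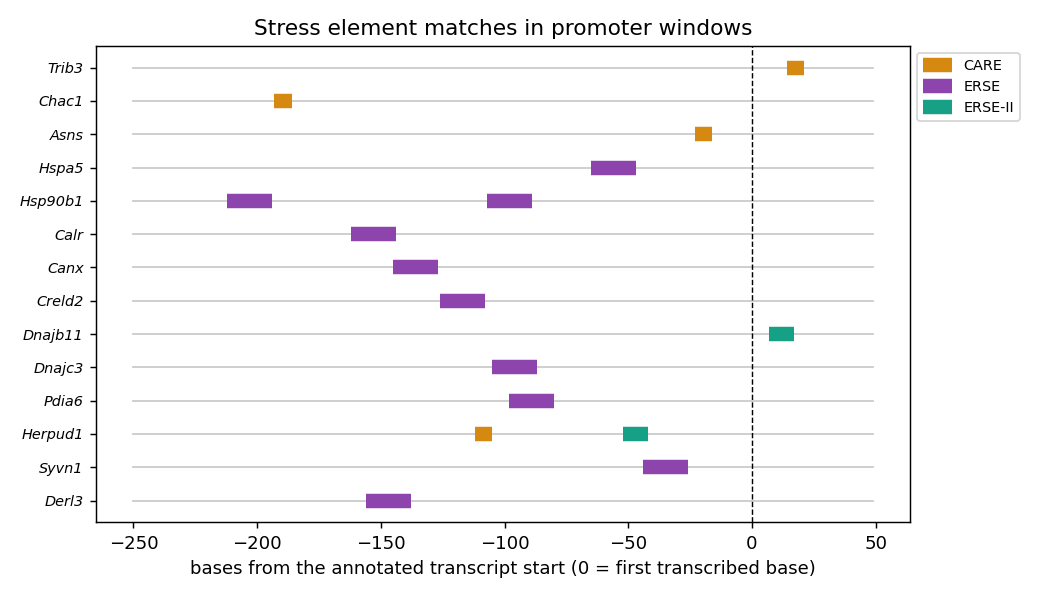
Positions of exact matches in the promoter windows, in bases from the annotated start (dashed line, 0). Purple bars are ERSE, green ERSE-II and orange (CARE) the ATF4 element; the 10 ERSE matches lie upstream of the start, in 9 genes.

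In the hypothalamus of tumour-bearing mice 0 of the 29 tested genes were called higher and 0 lower (limma, Benjamini-Hochberg over 22837 tested probe sets, threshold 0.05). Over all tested genes 0.0771% were called higher and 0% lower. At an unadjusted p under 0.05 limma gave 3 genes with a higher level in tumour-bearing mice, Ern1, Dnajb9 and Hspa5 (10.3% of the 29, against 3.78% of all tested genes), and 0 with a lower one (against 6.51%). The median difference of the 29 was -0.0027 on the log2 scale, against -0.01 over all tested genes, with 14 above 0 and 15 below (48.3% above, against 45.5% of all tested genes). The difference was under 0.10 in size for 25 of the 29 (86.2%, against 67.8%). The differences ran from -0.09 (Calr) to 0.23 (Ern1). Their intervals were narrow. The 95% interval lay within 1.2-fold either way for 24 of the 29, against 55.2% of all tested genes, and within 1.5-fold either way for all 29, against 95.3%. The exceptions at 1.2-fold were Ern1, Syvn1, Derl2, Derl3 and Sec61b. RMA compresses folds, so these bounds hold for the deposited scale. Tissue RNA mixes cell types, so fewer cells of a type and less RNA per cell cannot be told apart, and a change in a rare neuron type can be too small to see.

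**Figure D2:**
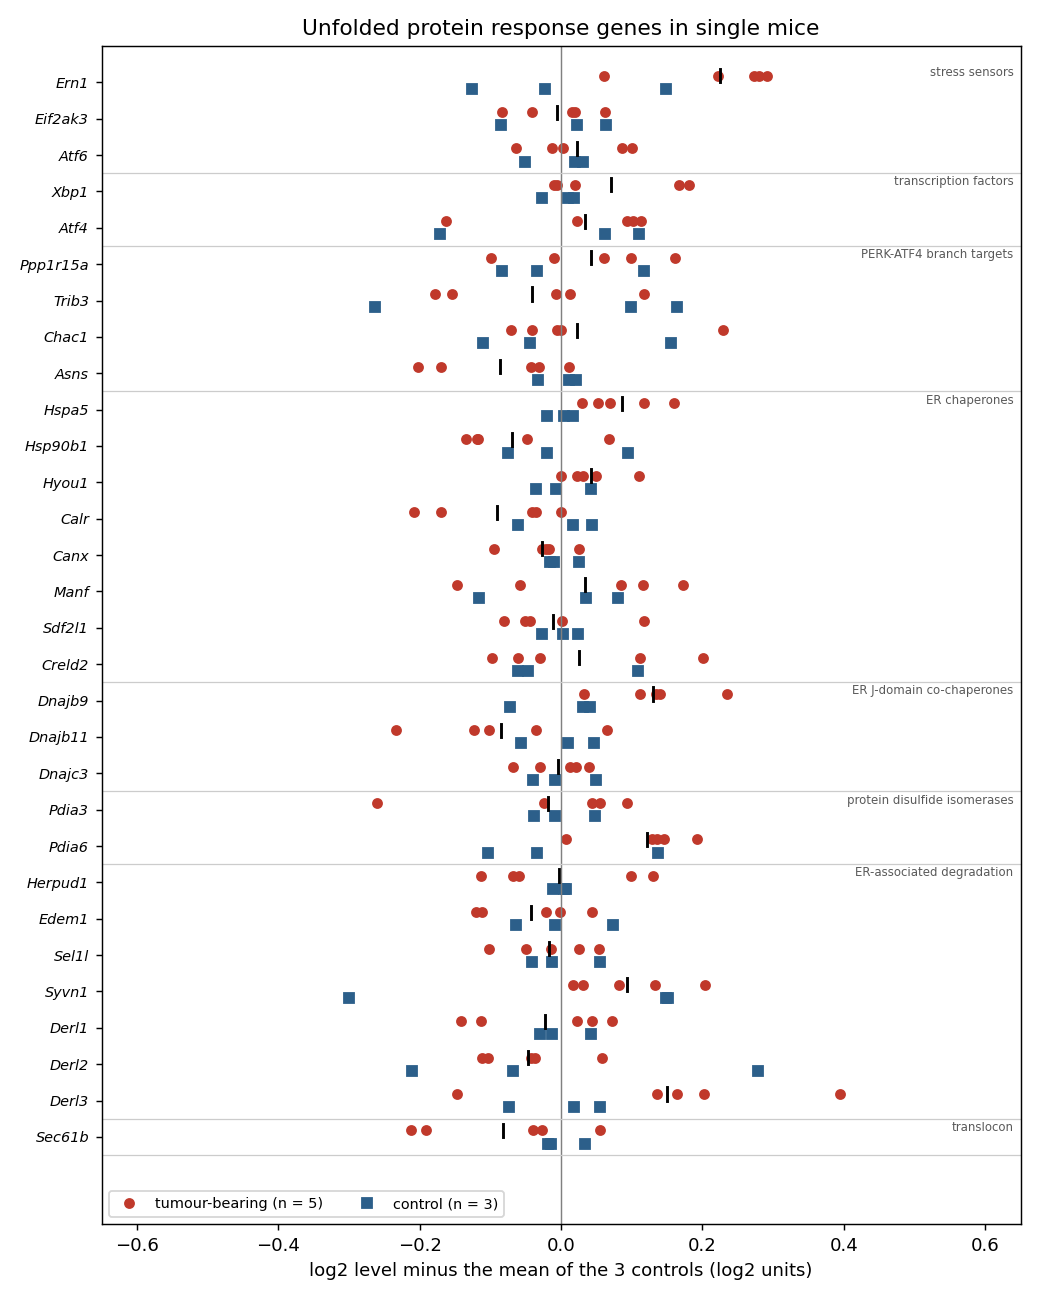
Log2 level of 30 genes in each mouse, minus the mean of the 3 controls (log2 units), ordered by role. Red circles are the 5 tumour-bearing mice, blue squares the 3 controls, and black ticks the tumour-bearing mean; Hspa5 is the gene whose groups do not overlap.

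**Figure D3:**
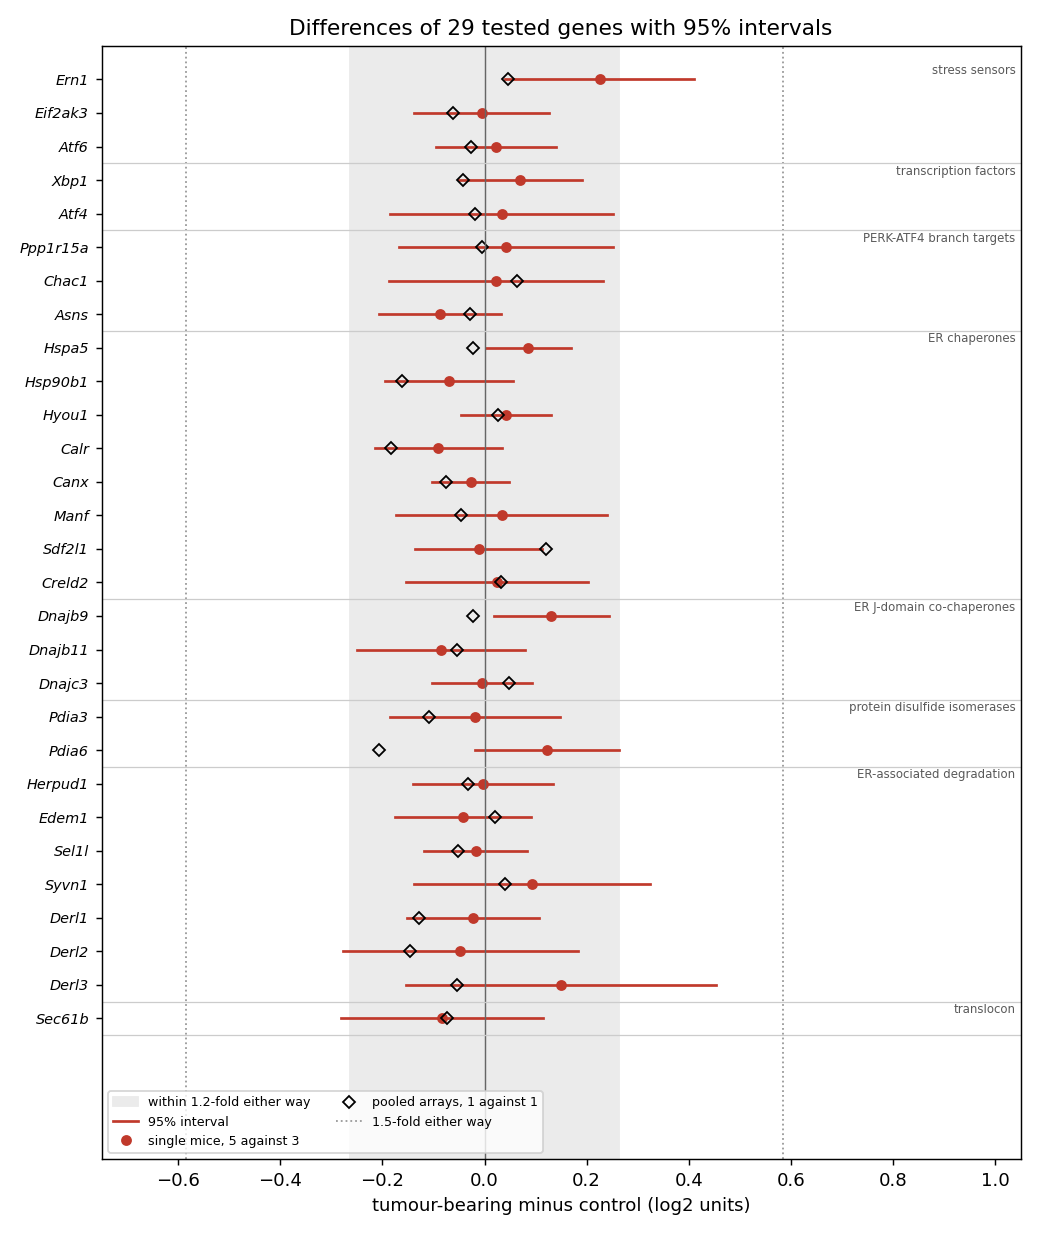
Tumour-bearing minus control for the 29 tested genes (log2 units): red points and bars are the limma difference and 95% interval of 5 against 3 mice, and open diamonds the difference of the 2 pooled arrays. All intervals stay within 1.5-fold (dotted lines), and 24 within 1.2-fold (grey).

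Among the stress sensors, Ern1, which encodes the kinase and endonuclease IRE1, had the largest difference of the 29. Its log2 levels were 6.57, 6.81, 6.79, 6.79 and 6.74 in tumour-bearing mice 1 to 5, against 6.39, 6.49 and 6.66 in controls 1 to 3. Mice 2 to 5 lay above every control, and mouse 1 lay among the controls. The means were 6.74 ± 0.10 (SD, n = 5) in tumour-bearing mice and 6.51 ± 0.14 (SD, n = 3) in controls, a fold of 1.17 with a 95% interval of 1.03 to 1.33 (log2 0.23 ± 0.08 SE, limma adjusted p = 0.397). Without control 1, the lowest array, the difference was 0.16, and without control 3 it was 0.30. Eif2ak3, the gene of PERK, was at 7.07, 7.01, 7.11, 6.97 and 7.07 in tumour-bearing mice, against 6.97, 7.07 and 7.11 in controls. The 2 groups covered the same range, and the difference was -0.0053 (95% interval -0.14 to 0.13). Atf6 stood at 7.84, 7.74, 7.86, 7.76 and 7.69 in tumour-bearing mice, against 7.79, 7.78 and 7.71 in controls. These groups overlapped too, with a difference of 0.02 (95% interval -0.09 to 0.14).

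Of the transcription factors, Xbp1 measured 9.73, 9.70, 9.89, 9.88 and 9.70 in tumour-bearing mice, against 9.73, 9.68 and 9.72 in controls. Mice 3 and 4 stood apart at the top, and the other tumour-bearing mice lay with the controls. The difference was 0.07 ± 0.05 SE (limma adjusted p = 0.696), and without mice 3 and 4 it was 0.0010 (limma adjusted p = 0.996; the alternatives ran from 0.497 to 0.996). Atf4, the factor translated when PERK or another eIF2 kinase is active, was at 5.83, 6.09, 6.02, 6.11 and 6.10 in tumour-bearing mice, against 5.82, 6.11 and 6.06 in controls. Both groups held 1 low array, tumour-bearing mouse 1 and control 1, and the difference was 0.03 (95% interval -0.18 to 0.25).

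The targets of the PERK and ATF4 arm showed no called difference. Ppp1r15a, the phosphatase subunit GADD34 that restores translation, was at 5.52, 5.63, 5.44, 5.60 and 5.70 in tumour-bearing mice, against 5.65, 5.45 and 5.50 in controls. The groups were interleaved (difference 0.04, 95% interval -0.17 to 0.25). Chac1, a glutathione-degrading enzyme gene that ATF4 raises strongly in cultured cells, was at 6.21, 6.14, 6.17, 6.21 and 6.44 in tumour-bearing mice, against 6.10, 6.17 and 6.37 in controls. Mouse 5 alone lay above every control, and the difference was 0.02 (95% interval -0.19 to 0.23). Asns, asparagine synthetase, was at 9.91, 9.97, 9.79, 9.75 and 9.92 in tumour-bearing mice, against 9.97, 9.92 and 9.98 in controls. Mice 3 and 4 were the lowest, and the difference was -0.09 ± 0.05 SE (limma adjusted p = 0.611). Trib3, a pseudokinase gene induced by ATF4 and CHOP, was at 3.91 to 4.21 in tumour-bearing mice and 3.83 to 4.26 in controls, below the filter level of 4.32 on all 8 arrays, and was not tested.

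Of the 8 chaperones and luminal factors 4 had a difference above 0 and 4 below, with a median of 0.0065. Hspa5, which encodes BiP, the chaperone that holds the sensors inactive, was at 10.21, 10.25, 10.34, 10.30 and 10.23 in tumour-bearing mice, against 10.16, 10.18 and 10.19 in controls. Every tumour-bearing mouse lay above every control, as for 1 of the 29 genes (3.45%) and 3.11% of all tested genes; 0 of the 29 had groups apart the other way, against 5.19% (8.30% of all tested genes either way). The size was small: 10.26 ± 0.05 (SD, n = 5) in tumour-bearing mice and 10.18 ± 0.02 (SD, n = 3) in controls, a fold of 1.06 with a 95% interval of 1.00 to 1.12 (log2 0.09 ± 0.04 SE, limma adjusted p = 0.466). Hsp90b1, the ER member of the HSP90 family, was at 10.17, 10.17, 10.36, 10.24 and 10.15 in tumour-bearing mice, against 10.38, 10.27 and 10.21 in controls. It differed by -0.07 ± 0.06 SE, with overlapping groups, and by -0.02 without control 1, the highest array. The lectin gene Calr differed by -0.09 and Canx by -0.03, with 95% intervals of -0.22 to 0.03 and -0.10 to 0.05. Hyou1, a large HSP70-related chaperone gene, differed by 0.04, Manf, which encodes a secreted neurotrophic ER protein, by 0.03, Creld2 by 0.02 and Sdf2l1, a partner of BiP, by -0.01.

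The co-chaperones bring unfolded clients to BiP through their J domains. Dnajb9, the gene of ERdj4, which represses IRE1 through BiP in cultured cells, was at 9.13, 9.02, 9.23, 9.13 and 9.10 in tumour-bearing mice, against 9.03, 8.92 and 9.02 in controls. All but mouse 2 lay above every control, with a fold of 1.09 and a 95% interval of 1.01 to 1.18 (log2 0.13 ± 0.05 SE, limma adjusted p = 0.413). Without control 2, the lowest array, it was 0.09. Dnajb11 differed by -0.09, with a 95% interval of -0.25 to 0.08. Dnajc3, the gene of P58IPK, differed by -0.0050; its 2 probe sets hold identical values. Of the disulfide isomerases, which form and shuffle disulfide bonds, Pdia6 differed by 0.12 ± 0.06 SE (95% interval -0.02 to 0.26). Control 1 was at 8.40 for Pdia6, among the tumour-bearing mice (8.27 to 8.46), and the other controls were at 8.23 and 8.16; without control 1 the difference was 0.19. Pdia3, which works with calreticulin and calnexin, differed by -0.02 (95% interval -0.19 to 0.15). Pdia3 in tumour-bearing mice ran from 9.46 in mouse 1 to 9.81 in mouse 4, a wider span than the 9.68 to 9.77 of the controls.

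ER-associated degradation pulls misfolded proteins back to the cytosol for the proteasome. Its 7 listed genes had a median difference of -0.02, 2 above 0 and 5 below. Herpud1 holds both an ERSE-II and the ATF4 element in its promoter window, of which only the ERSE-II is printed above. Its levels were 8.78, 8.59, 8.74, 8.53 and 8.58 in tumour-bearing mice, against 8.65, 8.65 and 8.63 in controls. Tumour-bearing mice lay on both sides of the narrow control range, 2 above it and 3 below, and the difference was -0.0027 (95% interval -0.14 to 0.13). Edem1, which selects clients by their sugar chains, differed by -0.04, and Sel1l, the adaptor of the ubiquitin ligase, by -0.02. Syvn1, the ligase HRD1 itself, differed by 0.09, but control 1 was at 7.10 against 7.55 and 7.56 in the other controls and 7.42 to 7.61 in tumour-bearing mice, and without it the difference was -0.06. Derl2 ran from 6.77 to 6.94 in tumour-bearing mice, against 6.67 to 7.16 in controls, with control 1 the highest, and differed by -0.05 with it and by 0.09 without it. Its relative Derl1 differed by -0.02. Derl3, close to the filter level, was at 4.45 to 5.00 in tumour-bearing mice and 4.53 to 4.66 in controls, and differed by 0.15 with the widest interval of the 29, -0.15 to 0.45. Sec61b, a subunit of the channel through which proteins enter the ER, differed by -0.08. Its other 2 probe sets were dim and differed by -0.06 and -0.08, the latter above the filter level on only 1 of the 8 arrays.

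Genes with and without the ERSE had small differences of both signs. The 9 tested genes with an exact match had a median difference of 0.02, 5 above 0 and 4 below, and the 16 tested genes with a window but no match had -0.0086, 6 above 0 and 10 below. The 7 other tested genes of the table with an ERSE in their window, which are not on the list, had a median of -0.0064, 3 above 0 and 4 below.

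The average over the 29 genes differed little between animals. The mean of their levels, each centred on its mean over the 8 arrays, was -0.01, -0.0049, 0.03, -0.02 and 0.04 in tumour-bearing mice 1 to 5, against 0.0025, -0.02 and -0.01 in controls 1 to 3. Tumour-bearing mice 3 and 5 were each the highest array for 8 of the 29 genes, while tumour-bearing mouse 4 was the lowest for 8 and control 1 for 7. The shares over all tested genes were 11.4% and 14.8% highest in mice 3 and 5, and 11.7% and 17.6% lowest in mouse 4 and control 1. The median residual SD of the 29 was 0.0849 on the log2 scale, against 0.0989 over all tested genes.

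Markers of neighbouring tissue varied between the arrays. Of 11 hypothalamic markers with a probe set 10 were above the filter level on all 8 arrays and Crh on none, and 10 had a higher mean in tumour-bearing mice. Anterior pituitary markers (8 of 10 with a probe set; Tshb and Pitx1 below the filter on every array) had a higher mean in tumour-bearing mice for all 8. Their summed linear level was 222, 275, 1924, 1944 and 261 in tumour-bearing mice 1 to 5, against 319, 194 and 164 in controls. The mice with the high sums, 3 and 4, are those with the highest Xbp1 and Hspa5. Without them the difference of Hspa5 was 0.05 in place of 0.09 (limma adjusted p = 0.694, against 0.317 to 0.892 over the alternatives). Dnajb9 then differed by 0.09 and Ern1 by 0.19. At an unadjusted p under 0.05 limma then gave 0 of the 29 genes a higher level and 2, Hsp90b1 and Calr, a lower one. The share of all tested genes at that level was not counted without these mice. In the main test 3.78% were higher and 6.51% lower. In the pools the pituitary sum was 1326 for tumour-bearing and 339 for control mice, and Xbp1 was at 9.83 in the tumour-bearing pool and 9.87 in the control pool, and Hspa5 at 10.17 and 10.19. All 10 oligodendrocyte markers with a probe set had a lower mean in tumour-bearing mice (summed level 4462 to 6382, against 6286 to 6693 in controls), as were all 10 midbrain dopamine markers (1036 to 2544, against 2689 to 3094). Summed levels of astrocyte (5352 to 5758 in tumour-bearing mice, against 5573 to 5986 in controls), microglial (710.5 to 861, against 797 to 899), endothelial (882 to 1050, against 802 to 1023) and choroid plexus markers (166 to 263, against 159 to 204) overlapped between the groups, while the neuronal sum, in which the brightest markers weigh most, was lower in tumour-bearing mice (12790 to 13120, against 13330 to 13660; 2 of 6 neuronal markers had a higher mean and 4 a lower one). Limma called none of the markers that passed the filter. Those were 4 of 8 for pituitary, 3 of 6 for choroid plexus and 6 of 7 for microglia. They were 10 of 11 for hypothalamus, 9 of 10 for midbrain, and all with a probe set for the other lists. The part of these tissues in the differences above was not tested.

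**Figure D4:**
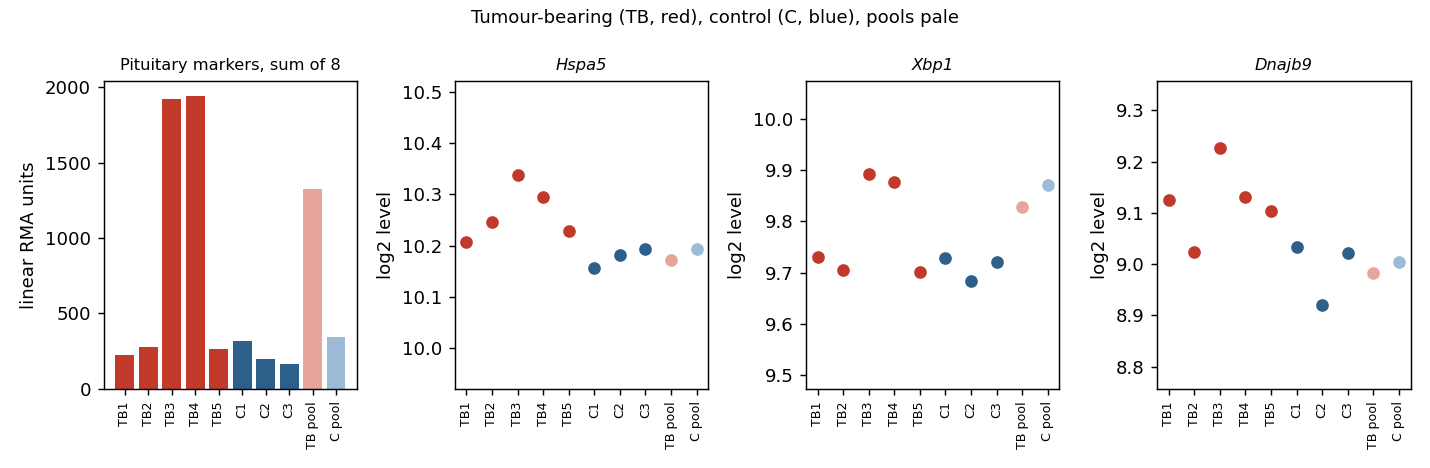
Summed linear level of 8 anterior pituitary markers (bars, from 0) and log2 levels of Hspa5, Xbp1 and Dnajb9 (points) in each array, tumour-bearing mice (red), controls (blue) and the 2 pools (pale). Xbp1 is highest among single mice in tumour-bearing mice 3 and 4, where the pituitary sum is 1924 and 1944; the y axes of the 3 genes do not start at 0.

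In the pooled arrays the difference was 0.05 for Ern1, -0.02 for Dnajb9 and -0.02 for Hspa5, the genes with an unadjusted p under 0.05 in the individual arrays. For Derl3, Pdia6 and Syvn1, whose differences in the individual arrays were also above that of Hspa5, it was -0.05, -0.21 and 0.04. Over the 29 genes the pool difference ran from -0.21 to 0.12 with a median of -0.03. It was above 0 for 8 (27.6%, against 47.3% of all tested genes), and it had the sign of the individual arrays for 17 (58.6%, against 60.9% of all tested genes). With 1 array per pool there is no test.

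Several genes differed more between the pooled and the individual arrays than between tumour-bearing and control mice. Both pools lay above all 8 individual arrays for 9 of the 29 genes (31.0%, against 13.0% of all tested genes) and below them for 2 (6.90%, against 11.8%). Creld2 was at 8.04 in the tumour-bearing pool and 8.01 in the control pool, while individual arrays ran from 7.29 to 7.59 in tumour-bearing mice and from 7.33 in control 2 to 7.50 in control 1. Chac1 was at 6.76 and 6.69 in the tumour-bearing and control pools, against 6.10 to 6.44 over the individual arrays. Asns was likewise at 10.23 and 10.26, Calr at 9.60 and 9.78 and Dnajb11 at 7.14 and 7.19 in those pools, and Atf4, Ppp1r15a, Sdf2l1 and Herpud1 completed the 9. The mean of the pools minus the mean of the individual arrays was 0.62 for Creld2, 0.50 for Chac1, 0.33 for Asns and for Calr, and 0.31 for Dnajb11. Hsp90b1 (-0.25) and Derl2 (-0.35) were the lower pair. The series' design text assigns pooled samples to a pilot study, so the pools and the individual arrays may differ in more than pooling, and what sets them apart was not tested.

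**Figure D5:**
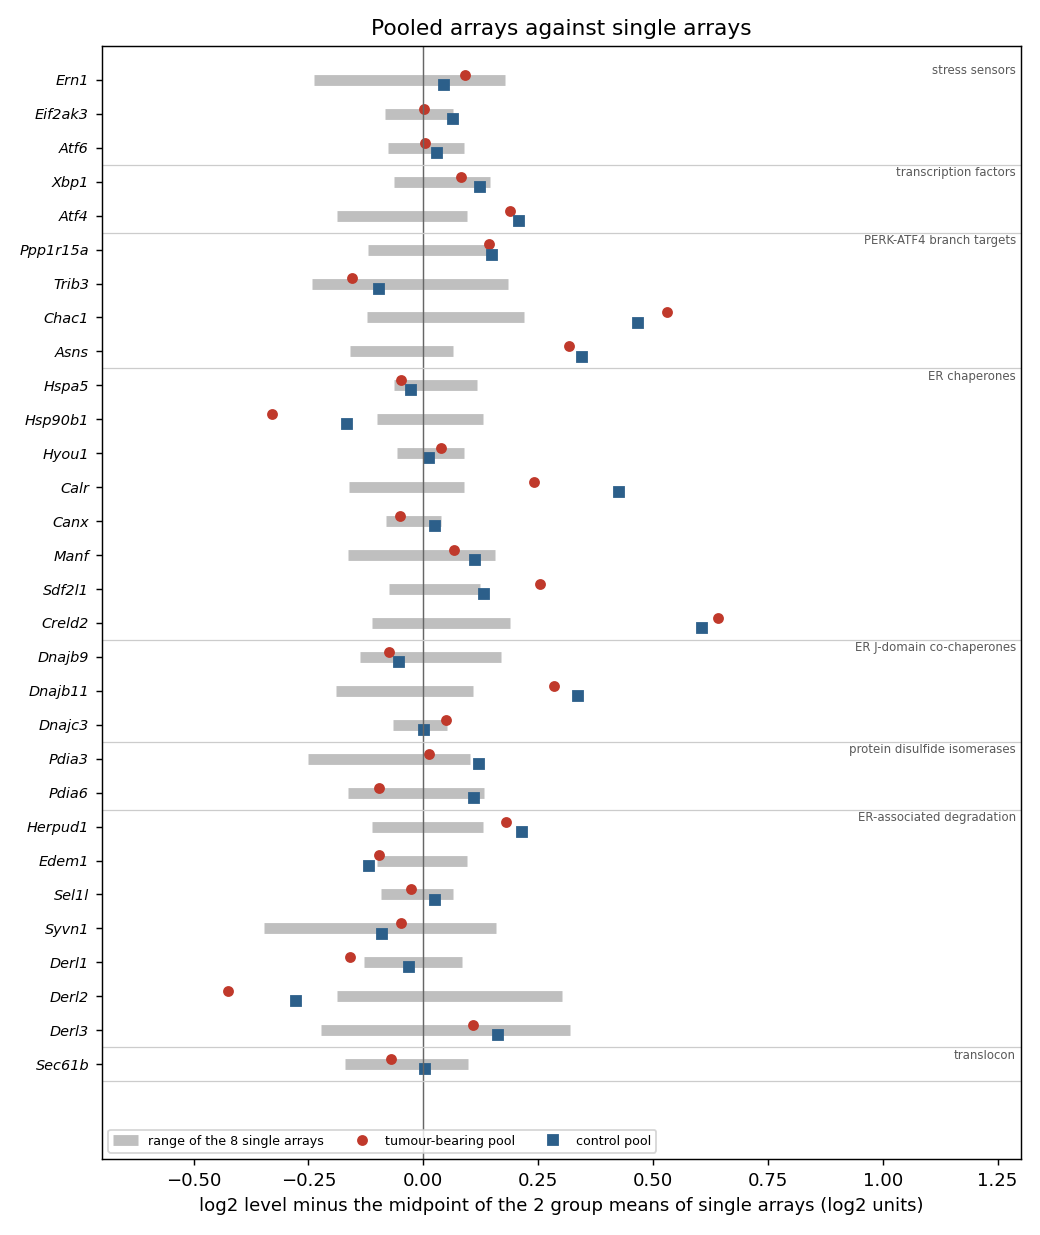
Log2 level of the tumour-bearing pool (red circles) and the control pool (blue squares) for 30 genes, minus the midpoint of the group means of individual arrays; grey bars span the 8 individual arrays. Both pools lie to the right of the grey bar for 9 genes, among them Creld2, Chac1 and Asns, and to the left for Hsp90b1 and Derl2.

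The wider pathway gave the same count. Of 106 further genes of the integrated stress response, ER folding, degradation, translocation and stress-linked death signalling, 97 had a probe set of their own and 93 were tested. Limma called 0 higher and 0 lower, with 5 higher and 3 lower at an unadjusted p under 0.05 (5.38% and 3.23%, against 3.78% and 6.51% of all tested genes), and a median difference of -0.0031. Cth had the highest and Slc7a11 the lowest difference. Cth, cystathionine gamma-lyase, which makes cysteine, was at 6.23, 6.19, 6.30, 6.37 and 6.40 in tumour-bearing mice, against 6.03, 5.83 and 6.07 in controls. The groups did not overlap, the tumour-bearing mice being the higher (log2 0.32 ± 0.08 SE, fold 95% interval 1.09 to 1.42, limma adjusted p = 0.277). Slc7a11, the cystine importer, was at 7.85, 8.29, 8.27, 8.14 and 7.80 in tumour-bearing mice, against 8.57, 8.28 and 8.48 in controls. It differed the other way, by -0.37 ± 0.13 SE (limma adjusted p = 0.360), with mouse 2 alone reaching into the control range. Both are ATF4 targets in cultured cells, and their differences had opposite signs. Ddit4, an inhibitor of mTOR signalling that also responds to glucocorticoids, was at 7.62, 6.92, 6.87, 7.16 and 7.26 in tumour-bearing mice, against 6.98, 6.80 and 6.85 in controls. It differed by 0.29 ± 0.15 SE, with mouse 1 the highest and mice 2 and 3 within the control range. Wfs1, the ER membrane protein gene mutated in Wolfram syndrome, was at 8.98, 8.56, 8.65, 8.47 and 8.49 in tumour-bearing mice, against 8.33, 8.25 and 8.50 in controls. It differed by 0.27 ± 0.11 SE, with mouse 1 the highest and mice 4 and 5 below control 3. Sec11c, a signal peptidase subunit gene, was at 7.44, 7.79, 7.46, 7.49 and 7.60 in tumour-bearing mice, against 7.73, 7.86 and 7.71 in controls, and differed by -0.21 ± 0.08 SE, with mouse 2 within the control range. Casp12, a caspase gene tied to ER stress in rodents, was at 4.03, 4.45, 4.70, 4.50 and 3.97 in tumour-bearing mice, against 4.75, 4.50 and 4.66 in controls, and differed by -0.31 ± 0.19 SE, with mice 1 and 5 below the filter level. Of 15 tested targets of the integrated stress response 4 were above 0 and 11 below (median -0.05). Of 8 tested aminoacyl-tRNA synthetase genes, which ATF4 also raises, 1 was above 0 and 7 below (median -0.05). Over all tested genes 45.5% were above 0, with a median of -0.01.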

How the data were processed

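The deposited values are log2 expression levels per probe set, made by the authors with RMA per the submitters' processing notes (log2 judged from the range of values; the sources used here name neither version nor probe set definition). Of 35556 probe sets, 21218 were paired with 1 gene by the platform annotation, 1881 with several and 12457 were unnamed here. A probe set entered the test where 3 or more of the 8 individual arrays exceeded a linear level of 20 (log2 4.32). The test was limma 3.58.1 in R 4.3.3 (lmFit, eBayes with an intensity trend), Benjamini-Hochberg adjusted over all 22837. The procedure was tested on simulated normal values with known changes, all larger than any difference among the members. That test says nothing on changes as small as theirs. Each replicate is 1 mouse, and the number of arrays limits the precision. The members, the further pathway genes, the markers and the named genes were chosen with earlier results of these data known. Sensors, transcription factors, ATF4 targets, main chaperones, Dnajb9 and Herpud1 are given by mouse whatever their result. Exceptions are Ddit3, which is not reported, and Trib3, below the filter on every array and given by its ranges. Any other member whose groups did not overlap or whose unadjusted limma p was under 0.05 was to be given by mouse too. So are the 3 highest and 3 lowest differences among the further genes. The promoter elements were chosen after the data were seen, from textbook knowledge. Alternatives changed the filter, variance model, array weights, normalization, replicate block, pools, probe sets and animals. Figures used matplotlib 3.10.9.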

Additional observations from a re-analysis of the deposited data

Results flagged for a closer look

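Chac1 in tumour-bearing mouse 5 was 6.44, far above the 6.14 to 6.21 of the other 4 tumour-bearing mice; its gap to the next mouse was 0.762 of the range of the group, over the critical value of 0.71 for 5 samples. Such gaps arise by chance in about 1 of 20 groups, and 30 genes were examined. Without that mouse the difference of Chac1 was -0.03 in place of 0.02.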

How the results depend on the processing

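The counts of genes called higher and lower stayed at 0 and 0 by limma under all 19 alternatives (other filters, variance models, array weights, normalization, pools as samples, mean of probe sets, only probe sets with 1 gene, replicate block, and leaving out each animal or tumour-bearing mice 3 and 4 together). The lowest adjusted p of any member under any alternative was 0.259. The median difference ran from -0.012 without tumour-bearing mouse 3 to 0.014 without tumour-bearing mouse 4. With the replicate block the counts were 0 and 0 and the median was 0.0009. Deviations of same-numbered animals correlated at -0.0020 to 0.0089, against -0.04 to 0.03 for animals of other numbers. So few same-numbered animals cannot settle whether the numbers pair the mice. The count of members higher at an unadjusted limma p under 0.05 varied. It was 3 in the main test, 4 with array weights, and 0 without control 2 or without tumour-bearing mice 3 and 4 together. It was 1 without tumour-bearing mouse 3, with pools as samples, without the intensity trend or with the replicate block. The share of all tested genes at that level was not counted under the alternatives (3.78% in the main test). Of the tested members given by mouse, Ern1, Dnajb9, Hspa5 and Xbp1 stayed above 0, and Asns and Hsp90b1 below 0, under all 19. Atf4, Atf6, Chac1, Eif2ak3, Herpud1 and Ppp1r15a took the other sign under at least 1. Some of the other members also kept their sign, among them Pdia6, Calr and Canx, and others, such as Syvn1 and Derl2, did not.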

Other observations

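Among further pathway genes, 5 had groups that did not overlap (5.38%, against 8.30% of all tested genes), named here after their values were seen. Cth, Os9, a lectin gene of ER-associated degradation, and Map3k5, the stress kinase ASK1, were higher in every tumour-bearing mouse; Os9 was at 8.53 to 8.73 in tumour-bearing mice and 8.44 to 8.51 in controls. Tars, threonyl-tRNA synthetase, and Ubxn4, another degradation gene, were lower in every tumour-bearing mouse; Ubxn4 was at 7.92 to 7.97 in tumour-bearing mice and 8.01 to 8.05 in controls. None passed the limma threshold. In the pools Os9 differed by 0.19, Cth by 0.19, Map3k5 by -0.23, Tars by 0.0093 and Ubxn4 by 0.08.

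The pools also stood apart from the individual arrays in the further genes, with 15 of 93 above all 8 individual arrays (16.1%) and 19 below (20.4%), against 13.0% and 11.8% of all tested genes.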
